A study of Mus musculus with 49 samples.

Results

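B4, ID and MIR are groups of SINEs (short interspersed nuclear elements), small repeats that lie in many copies across the mouse genome. The insertions described here were the rows of the insertion count tables whose name ends in the B4, ID or MIR group, that were read in 25% or more of the kept embryos of the TBP experiment, which is 5 of 18. The rule kept 1370 of the 40760 insertions of all kinds that reached the same limit. They comprised 1053 B4, 112 ID and 205 MIR insertions.

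Each sample was a single late 2-cell embryo from an F1 C57BL/6J x CBA/H cross, collected 48 h after hCG, with its polyadenylated RNA read from the 5′ end (Smart-seq+5′). Zygotes received an antibody and, 4 h later, Trim21 mRNA, so that the bound protein is handed to the proteasome (Trim-Away). LOF embryos of the TBP experiment received anti-TBP and the CONTROL embryos mouse IgG, with 9 and 10 embryos, while LOF embryos of the FOXJ3 experiment received anti-FOXJ3 and the CONTROL embryos rabbit IgG, with 17 and 13 embryos in 2 library batches. After quality limits 9 TBP LOF, 9 mouse IgG CONTROL, 16 FOXJ3 LOF and 13 rabbit IgG CONTROL embryos remained. All groups therefore shared the injections and the Trim21 mRNA, and CONTROL embryos differed only in the antibody. The deposited tables hold no measure of how much TBP or FOXJ3 protein was left.

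B4, ID and MIR elements all descend from small RNAs transcribed by RNA polymerase III and carry, when intact, an internal promoter of that type. ID elements derive from the BC1 RNA gene, itself derived from an alanine tRNA, B4 elements join an ID-like and a B1-like part, and MIR elements are ancient tRNA-derived SINEs that were mobilised with LINE-2 and stopped spreading long before rodents arose. TBP, the TATA-binding protein, is a subunit of TFIID for RNA polymerase II and of TFIIIB for RNA polymerase III. Copies of these SINEs also lie in introns and untranslated parts of genes, and a 5′ read of a polyadenylated RNA assigned to an insertion does not by itself tell which polymerase made the RNA. The insertions are named by family and copy number, as in B4_dup36041, and their genome positions were not used here, so no sequence or host gene is given for them.

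The 18 kept embryos of the TBP experiment held between 1160150 and 5434808 counted reads. Reads of the ERCC spike-in, synthetic RNA added in equal amount to each embryo, made up 2.67 to 6.12% of the counted reads of LOF embryos and 2.22 to 3.25% of those of CONTROL embryos. Counts were scaled to this spike-in, and a normalised count is a read count divided by the embryo's spike-in size factor. Size factors were largest in LOF embryo 11 (4.14) and CONTROL embryo 9 (2.95), against 0.554 to 1.63 in the other 16 embryos. CONTROL embryo 9 stood below the other CONTROL embryos in several of the sums below, and LOF embryo 11 had the lowest LOF sums. Values without each of them are given there. Markers of the 2-cell stage were present, with all 8 of Zscan4c, Zscan4d, Zscan4f, Zfp352, Eif4e3, Tdpoz4, Usp17lc and Duxf3 read. However, Zscan4 copies are near-identical, and Duxf3 had 7 reads in all, at most 1 in an embryo. Of 9 markers of cumulus and granulosa cells, which surround the oocyte, Has2, Ptx3, Inhba and Fshr had no read, and their summed level was 0 to 4.45 rpm (reads scaled to the embryo's counted reads) in LOF and 0.809 to 24.1 rpm in CONTROL embryos, mostly Tnfaip6. The part of these markers in the results was not tested. Tbp mRNA itself was 77.0 ± 50.8 normalised counts in LOF and 338 ± 149 in CONTROL embryos (SD, n = 9 each), which checks the mRNA and not the protein that Trim-Away removes.

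Most annotated copies gave no read. The tables listed 413672 B4, 66438 ID and 124311 MIR rows, of which 24812, 3095 and 4503 had a read in any of the 18 embryos. Among the rows with a read, 73.6% of B4, 77.2% of ID and 74.7% of MIR rows were read in a single embryo. The 1053 B4 insertions that passed the rule held 37.8% of all B4 reads, the 112 ID insertions 34.8% of ID reads and the 205 MIR insertions 39.3% of MIR reads. The remaining reads of each group were thus spread over copies read in 4 embryos or fewer.

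By family, the B4 insertions were 451 of ID_B1, 275 of RSINE1, 196 of B4A and 131 of B4 itself. The ID insertions were 43 of ID4, 40 of ID4_, 18 of ID and 11 of ID2, and the MIR insertions 74 of MIRb, 54 of MIR, 46 of MIRc and 31 of MIR3. MIR1_Amn, with 190 annotated copies, had no read. Counts per insertion were low, with a median of 17 reads over the 18 embryos for B4, 17 for ID and 19 for MIR. At least 100 reads were reached by 52 B4, 6 ID and 12 MIR insertions. The 10 most-read insertions held 15.1% of the members' reads among the 1053 of B4, 44.0% among the 112 of ID and 27.4% among the 205 of MIR. Reads occurred in each of the 18 embryos at 12 B4 insertions and 1 MIR insertion, MIRc_dup18141, and at no ID insertion. At the limit of the rule, the 336 B4, 29 ID and 59 MIR insertions read in exactly 5 embryos had a median of 10 reads each. The 546 B4, 69 ID and 105 MIR rows read in 4 embryos, which were left out, had medians of 7, 8 and 9 reads. Of the 1370 insertions, 90 passed the rule with reads in CONTROL embryos only and 11 with reads in LOF embryos only, so for these the rule itself required a difference.

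RNA assigned to each of the SINE groups was lower in embryos injected with anti-TBP. Summed over the B4 insertions, the normalised count was 1150 ± 475 in LOF and 2762 ± 518 in CONTROL embryos (SD, n = 9 each). LOF embryos ran from 571 to 2090 around a median of 1053, and CONTROL embryos from 1613 to 3418 around a median of 2797. Only the lowest CONTROL embryo, number 9, fell inside the LOF range, and 8 of 9 CONTROL embryos lay above every LOF embryo. The difference of the mean log2 values was -1.34, or -1.44 without CONTROL embryo 9 and -1.23 without LOF embryo 11.

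For ID, the summed normalised count was 104 ± 45.8 in LOF and 303 ± 72.1 in CONTROL embryos. LOF embryos ranged from 38.4 to 202 with a median of 94.2, and CONTROL embryos from 207 to 434 with a median of 294. The ranges did not overlap, although the highest LOF embryo and the lowest CONTROL embryo lay close together. Over all ID rows with a read the ranges did overlap, with 90.5 to 529 in LOF and 414 to 1354 in CONTROL embryos. For the insertions that passed the rule the log2 difference was -1.64, or -1.69 without CONTROL embryo 9 and -1.48 without LOF embryo 11.

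The MIR sums moved less, and the groups overlapped more. They were 255 ± 119 in LOF and 493 ± 125 in CONTROL embryos, with a median of 257 between 94.2 and 473 in LOF and a median of 472 between 313 and 661 in CONTROL embryos. Below the CONTROL median were 8 LOF embryos, and above the highest LOF embryo were 4 CONTROL embryos. The log2 difference was -1.06, or -1.14 without CONTROL embryo 9 and -0.90 without LOF embryo 11.

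Because the share of spike-in reads also differed between the arms, the sums were set against each embryo's own counted reads as well. B4 insertions took 725 ± 109 rpm in LOF and 1200 ± 189 in CONTROL embryos, ID insertions 65.2 ± 13.1 and 132 ± 30.4, and MIR insertions 158 ± 37.3 and 213 ± 44.7. On this scale the log2 differences shrank to -0.72 for B4, -1.02 for ID and -0.44 for MIR, all still negative. Again the 9 LOF embryos lay below each CONTROL embryo for ID, while in MIR only 3 LOF embryos lay below the lowest CONTROL embryo. Taken over all ID rows with a read, 6 LOF embryos lay below the lowest CONTROL share of counted reads. As the member sums run over chosen insertions, no test was attached to them.

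**Figure D1:**
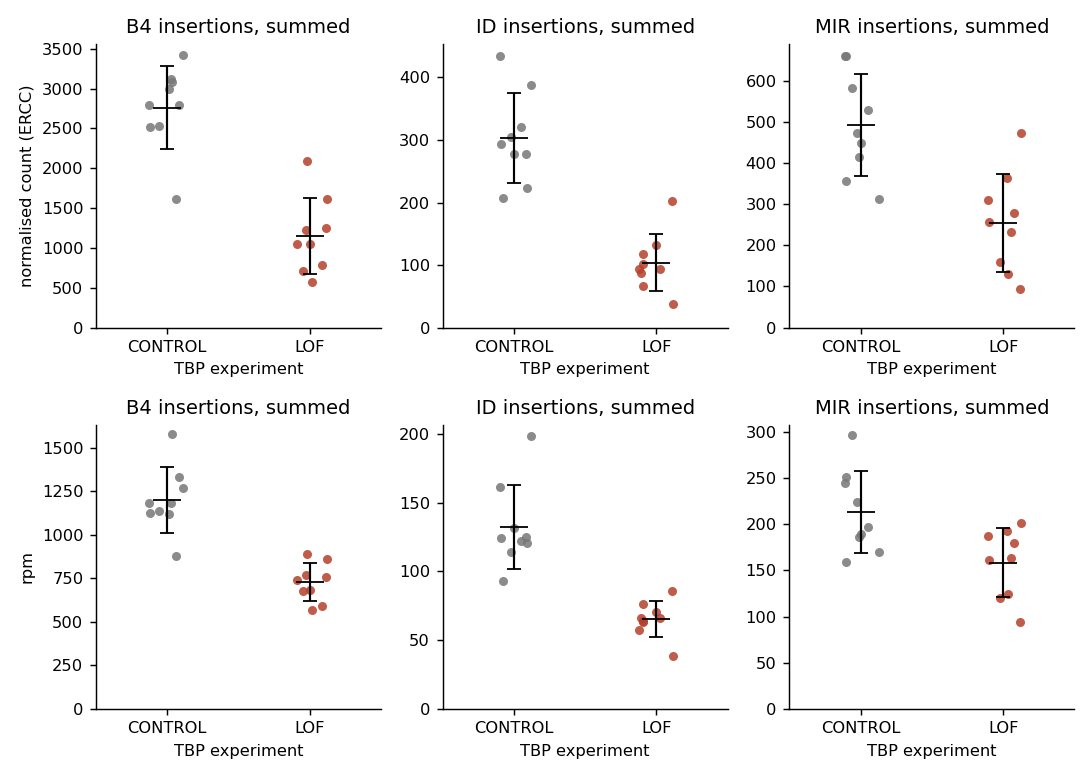
Summed reads of the B4, ID and MIR insertions in each of the 9 CONTROL and 9 LOF embryos of the TBP experiment, as normalised counts scaled to the spike-in (top) and as rpm of counted reads (bottom). Each point is an embryo, and bars give the mean and SD. Among these insertions, which passed the rule, ID shows no overlap on either scale and MIR the most overlap. Over all ID rows with a read the arms overlap.

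The number of insertions seen in an embryo was also lower in LOF embryos, but the rule enters it. Insertions had passed through their reads in these same embryos, 90 of them in CONTROL embryos only and 11 in LOF embryos only. The numbers are therefore a description, with none over all insertions beside them. LOF embryos showed a read at 268 to 447 of the B4 insertions (median 363) and CONTROL embryos at 434 to 617 (median 538). For ID the medians were 41 and 56 insertions and for MIR 81 and 104. Depth can enter these numbers as well as RNA amount. Their correlation with log2 counted reads was 0.44 (B4), 0.26 (ID) and 0.56 (MIR) in CONTROL embryos. In LOF embryos it was -0.19, -0.09 and -0.14. The counted reads of the arms overlapped, with medians of 1706256 in LOF and 1551711 in CONTROL embryos.

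By point estimate the 3 groups fell by different factors, which was not tested. A ratio between groups within an embryo does not depend on the scaling, and over all rows with a read each LOF embryo held 0.433 to 0.587 ID reads per MIR read, against 0.593 to 0.816 in CONTROL embryos. The mean was 0.508 ± 0.0604 in LOF and 0.694 ± 0.0651 in CONTROL embryos (SD, n = 9 each), without overlap. B4 reads per MIR read were 4.83 ± 0.504 in LOF and 5.94 ± 0.587 in CONTROL embryos, and here the ranges of 4.20 to 5.65 and 5.05 to 6.82 overlapped. MIR thus made up 15.9% ± 1.31 of the reads of the 3 groups in LOF and 13.2% ± 1.13 in CONTROL embryos.

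**Figure D2:**
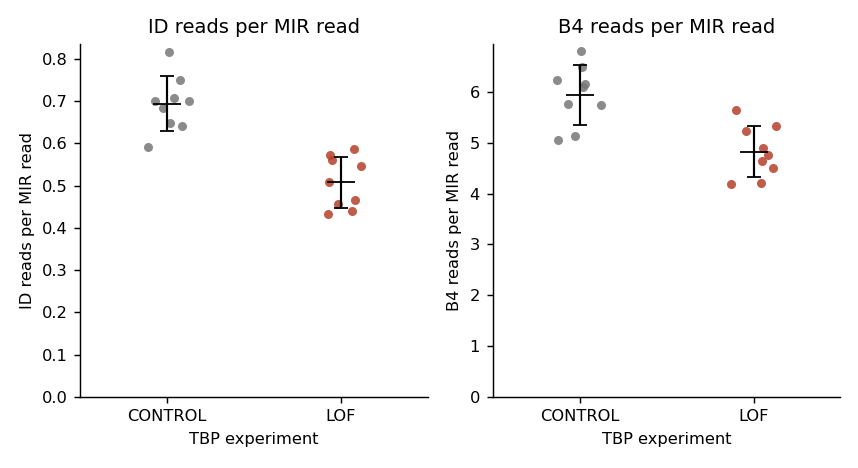
ID reads per MIR read (left) and B4 reads per MIR read (right) in each CONTROL and LOF embryo of the TBP experiment, over all rows of each group with a read. Points are embryos and bars the mean and SD. The ID ratio is at most 0.587 in the 9 LOF embryos and at least 0.593 in the 9 CONTROL embryos.

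At the level of families, which the deposited family tables count over all copies of a family, 12 families of the 3 groups had reads and all 12 were lower in TBP LOF embryos past the threshold of an adjusted p of 0.05. The test was edgeR's quasi-likelihood test over 19356 genes and families with Benjamini-Hochberg adjustment, in which 29.7% of all features were lower, so the 12 stand in a broad fall with a median log2 fold change of -0.72.

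ID4_, an ID family, fell furthest. Its normalised counts ran from 37.7 to 228 around a median of 147 in LOF embryos and from 188 to 618 around 417 in CONTROL embryos, with 7 LOF embryos below the lowest CONTROL embryo. On the log2 scale it changed by -1.64 ± 0.31 (SE; adjusted p = 3.4e-05 in edgeR's test). ID4 followed with 138 (23.2 to 225) against 357 (153 to 517) as medians and ranges, a change of -1.48 ± 0.32 (adjusted p = 0.000202). ID2, the least read family, had medians of 32.4 in LOF and 75.6 in CONTROL embryos and a change of -1.31 ± 0.36 (adjusted p = 0.00324). The family called ID, with medians of 64.9 and 123, fell by 0.95 ± 0.32 on the log2 scale (adjusted p = 0.0162).

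In the B4 group, ID_B1 and RSINE1 fell more than B4 and B4A by point estimate, within overlapping errors. ID_B1 had 1194 normalised counts (362 to 2161) in LOF and 3121 (1300 to 4432) in CONTROL embryos as medians and ranges, a log2 fold change of -1.43 ± 0.32 (adjusted p = 0.000274). RSINE1 had 867 (285 to 1536) and 2339 (881 to 3300), a change of -1.39 ± 0.31 (adjusted p = 0.000317). B4A and B4 changed by -1.20 ± 0.31 (adjusted p = 0.00158) and -1.20 ± 0.30 (adjusted p = 0.00134), with CONTROL embryo 9 inside the LOF range in all 4 families.

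MIRc fell least of the 12 families, while MIR3 changed about as much as B4 and B4A. MIR3 changed by -1.19 ± 0.30 (adjusted p = 0.00137), with medians of 90.0 in LOF and 204 in CONTROL embryos. MIRb changed by -1.01 ± 0.31 (adjusted p = 0.00807). MIR went from 402 ± 111 normalised counts in CONTROL to 201 ± 99.4 in LOF embryos (SD, n = 9 each, adjusted p = 0.0101, edgeR). MIRc had medians of 142 and 273 and a change of -0.80 ± 0.31 with an adjusted p of 0.0425, and it lost its call in 12 of the 18 fits that each left out 1 embryo and with summed spike-in scaling (adjusted p = 0.0519). Differences between families were not tested.

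With TMM scaling, which centres the bulk of features near no change, the median log2 fold change of all features in this table moved from -0.72 to 0.11 and 12.7% were lower. ID4_ (-0.87, adjusted p = 0.0024), ID4 (-0.74, adjusted p = 0.0145), ID_B1 (-0.67, adjusted p = 0.0217) and RSINE1 (-0.61, adjusted p = 0.0342) remained past the threshold of edgeR's test. The other 8 families kept a negative sign, from -0.05 for MIRc to -0.48 for ID2, without passing it. On this scale 2 ID and 2 B4 families but no MIR family were called, and no MIR family reached an unadjusted p under 0.05.

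Embryos injected with anti-FOXJ3, the antibody against the other transcription factor of the study, stayed near their own CONTROL embryos. No family of the 12 passed the threshold in edgeR's test over 19517 features with batch as a covariate, in which 0.0102% of features were called, and none had an unadjusted p under 0.05. DESeq2 called none either. Log2 fold changes ran from -0.18 ± 0.17 for ID to 0.11 ± 0.14 for ID4_. The 95% interval for ID4_ reached from -0.16 to 0.38 and that for ID_B1 from -0.27 to 0.18. ID_B1 had 2431 ± 407 TMM-scaled counts (reads divided by the embryo's TMM size factor) in 16 FOXJ3 LOF embryos and 2495 ± 371 in 13 CONTROL embryos (SD). These FOXJ3 values are TMM-scaled, whereas the TBP falls given above are spike-in scaled. With TMM scaling in both experiments, the TBP change lay below the FOXJ3 interval for 8 of the 12 families, and not for ID, MIR, MIRb and MIRc. With spike-in scaling in both it lay below the interval for all 12, and the FOXJ3 change of ID_B1 was then 0.15 ± 0.23. The median TBP change of all features was itself -0.72 on that scale. Features falling below their interval were not counted over all features, and the comparison leaves out the SE of the TBP change. It therefore does not set the 12 families apart from other features.

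The difference of both effects was fitted in 1 model over 19657 features, in which 27.8% were lower after anti-TBP than after anti-FOXJ3. Of the 12 families 11 differed, from -1.09 ± 0.39 for MIRc (adjusted p = 0.0257, edgeR) to -1.95 ± 0.40 for ID4_ (adjusted p = 0.000104). The ID family did not pass, with -0.96 ± 0.41 and an adjusted p of 0.067. With TMM scaling 4 of the 12 differed, where 10.6% of all features were lower, and MIRc stood at -0.15 (adjusted p = 0.673). The TBP and FOXJ3 embryos were made in separate experiments, each against its own IgG, and experiment and antibody cannot be told apart beyond those controls.

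**Figure D3:**
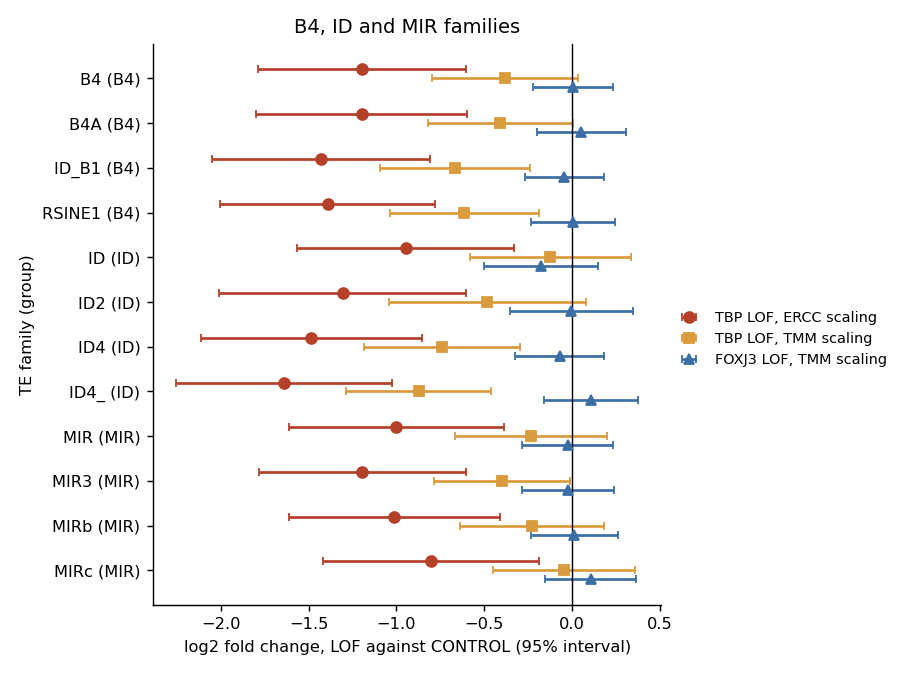
Log2 fold change of the 12 B4, ID and MIR families (group in brackets) in TBP LOF embryos with spike-in scaling (circles) and TMM scaling (squares), and in FOXJ3 LOF embryos with TMM scaling (triangles), each against its IgG CONTROL, with 95% intervals. Circles lie between -1.64 and -0.80, squares nearer to 0, and triangles at 0 within 0.18.

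Single insertions were tested together with the genes, 59207 features in all. Of these, 14.6% were lower and 0.76% higher in TBP LOF embryos at an adjusted p under 0.05 (edgeR, quasi-likelihood), and the median log2 fold change was -0.69. Of the 40760 insertions of every kind among them 4736 were lower (11.6%), with a median of -0.69; the share of any one group was not tested against these. Among the 1053 B4 insertions 186 were lower (17.7%) and 9 higher, with a median of -1.37. Among the 112 ID insertions 23 were lower (20.5%) and none higher, with a median of -1.41, and 3 more had an unadjusted p under 0.05 in the higher direction. DESeq2 called 1 higher. Among the 205 MIR insertions 30 were lower (14.6%) and 1 higher, with a median of -0.98. Insertions read in only 1 arm were also set to the fold that 3 reads over the empty arm would give. They lay at the extremes and left the medians at -1.37, -1.41 and -0.98. This cannot show what the rule itself adds.

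For comparison, 24.0% of the 3983 B1 insertions and 9.64% of the 15220 B2 insertions were lower, with medians of -1.74 and -0.92. The B4, ID and MIR groups lay between these in share and median. Whether the groups differ was not tested.

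With TMM scaling, where 6.76% of all features were lower, 2.63% higher and the median was -0.06, the calls were 105 lower and 16 higher in B4, 10 lower and 2 higher in ID, and 17 lower and 2 higher in MIR. ID4_dup21458 and ID_dup4207 were the higher ID calls. Medians were -0.73 for B4, -0.69 for ID and -0.48 for MIR. The insertions of the ID family alone had a median of -0.57 with spike-in scaling and 0.32 with TMM, so their direction depended on the scaling.

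**Figure D4:**
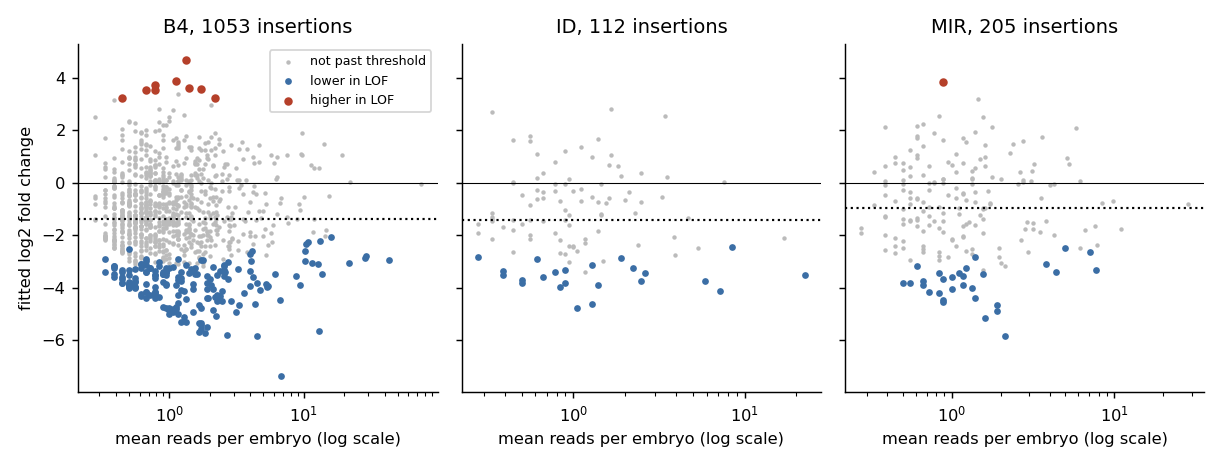
Fitted log2 fold change (TBP LOF against CONTROL) of each B4, ID and MIR insertion against its mean reads per embryo on a log axis. Blue points were lower and red points higher past the threshold, grey points did not pass, and the dotted line is the group's median. Values at the extremes belong to insertions with 0 or few reads in an arm and depend on the prior count of the fit.

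Within the families of the B4 group, 91 of 451 ID_B1 insertions were lower, 47 of 275 RSINE1, 30 of 196 B4A and 18 of 131 B4 insertions. Of the 9 higher B4 insertions 5 belonged to B4A, 3 to ID_B1 and 1 to RSINE1. In the ID group 11 of 43 ID4 and 8 of 40 ID4_ insertions were lower, and 2 each of ID and ID2. In the MIR group 13 of 74 MIRb, 11 of 54 MIR, 3 of 46 MIRc and 3 of 31 MIR3 insertions were lower. The calls depended on depth. Insertions with fewer than 1 read per embryo were lower in 95 of 710 cases (13.4%), those with 1 to 5 reads in 115 of 576, and those with 5 reads or more in 29 of 84 (34.5%). Over all features the same classes held 8.82%, 10.1% and 23.1% lower, and over all insertions of the genome 9.39%, 11.4% and 14.5%. In the last class 22 of 62 B4, 4 of 7 ID and 3 of 15 MIR insertions were lower and none was higher. All 90 insertions without a LOF read were among the 239 lower, and 8 of the 11 without a CONTROL read were among the 10 higher, so for these the call restates the rule. Among the 1269 insertions read in both arms, 117 of 975 B4, 15 of 103 ID (14.6%) and 17 of 191 MIR insertions (8.90%) were lower, against 12.8% of all features and 9.18% of all insertions read in both arms, and 2 B4 insertions, ID_B1_dup13782 and ID_B1_dup51032, were higher.

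Every LOF embryo lay below every CONTROL embryo at 9 of 1053 B4, 2 of 112 ID and 1 of 205 MIR insertions. Each is a smaller share than the 1603 of 59207 (2.71%) over all features tested. The ID insertions were ID4__dup5962 and ID4_dup9350, and the MIR insertion was MIRc_dup21147, which was chosen after its values were seen.

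The most-read insertion of all, RSINE1_dup103801 with 1353 reads, did not follow its group. Its normalised counts had a median of 63.9 in LOF embryos (26.4 to 103) and 64.2 in CONTROL embryos (33.9 to 86.0). The arms overlapped widely. Its fitted change was -0.05 ± 0.32 on the log2 scale (adjusted p = 0.95), and 0.73 with TMM scaling (adjusted p = 0.167).

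B4_dup36041 was next, with 782 reads. It had 0.73 to 25.4 normalised counts (median 9.02) in LOF and 59.9 to 101 (median 77.5) in CONTROL embryos. The arms were far apart. The change was -2.93 ± 0.49 on the log2 scale (adjusted p = 0.000273, edgeR), and -2.36 with TMM scaling (adjusted p = 0.00167). RSINE1_dup61344 had 2.46 to 19.3 (median 7.26) in LOF and 25.8 to 85.9 (median 48.5) in CONTROL embryos, a change of -2.77 ± 0.46 (adjusted p = 0.000294), again without overlap.

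RSINE1_dup83190 and ID_B1_dup77, the 2 B4 insertions with the smallest adjusted p, were nearly silent in LOF embryos. RSINE1_dup83190 gave 0 to 2 reads in a LOF embryo, 4 in all, and 7 to 79 in a CONTROL embryo, 229 in all, for a fitted log2 fold change of -5.66 ± 0.81 (adjusted p = 6.57e-05). ID_B1_dup77 gave 1 read in the 9 LOF embryos and 80 in the 9 CONTROL embryos, each of which had at least 1 read (adjusted p = 8.57e-05). Against them stood insertions read mainly after anti-TBP. B4A_dup61705 had 24 reads in 7 LOF embryos and none in CONTROL embryos, 7.59-fold above a floor of 3 reads over the CONTROL group. B4A_dup35216 had 14 reads in 6 LOF embryos and none in CONTROL embryos, 3.77-fold above that floor. Its call was lost with all 19 embryos (adjusted p = 0.14, edgeR). For insertions read in a single arm, such as these, the values are a description, since the rule kept them through that arm. ID_B1_dup13782 had 36 reads, spread over the 9 LOF embryos, and 3 in CONTROL embryos, a fitted change of 3.21 ± 0.96 (adjusted p = 0.0222) that was lost without the filter on low counts (adjusted p = 0.0766) and with insertions fitted alone (adjusted p = 0.0525). ID_B1_dup51032 had 30 reads in LOF and 1 in CONTROL embryos, a fitted change of 3.57 ± 1.11 (adjusted p = 0.0287), which was lost without CONTROL embryo 8 (adjusted p = 0.0511) or LOF embryo 10 (adjusted p = 0.0504). It was also lost with all 19 embryos (adjusted p = 0.0878), without the filter (adjusted p = 0.0628) and with insertions fitted alone (adjusted p = 0.0503). The other higher insertions rested on 8 to 25 reads, and 7 of the 9 had no CONTROL read.

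ID4__dup5962 was the most-read ID insertion. Its normalised counts were 0 to 9.66 (median 3.69) in LOF and 16.3 to 97.2 (median 46.6) in CONTROL embryos. No LOF embryo reached the lowest CONTROL embryo, and the change was -3.50 ± 0.60 (adjusted p = 0.00036, edgeR), or -2.64 with TMM scaling (adjusted p = 0.00764). The second, ID4__dup9979, varied widely among CONTROL embryos, from 0 to 80.9 with a median of 15.6, against 0 to 17.2 with a median of 4.59 in LOF embryos. It did not pass the threshold (-2.08 ± 0.77, adjusted p = 0.0674), but did without CONTROL embryo 2 (adjusted p = 0.0332) or LOF embryo 10 (adjusted p = 0.0334), with all 19 embryos (adjusted p = 0.0497) and with DESeq2 (adjusted p = 0.0327). CONTROL embryo 9 alone gave 134 of its 307 reads.

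ID4__dup24337 had 0 to 4.92 (median 2.90) in LOF and 3.61 to 36.3 (median 8.31) in CONTROL embryos, a change of -2.43 ± 0.66 (adjusted p = 0.0139) that was lost with TMM scaling (-1.62, adjusted p = 0.101), without the filter on low counts (adjusted p = 0.0891) and with insertions fitted alone (adjusted p = 0.0716). ID4_dup9350 had 7 reads in LOF and 122 in CONTROL embryos, with 0 to 6.35 and 8.31 to 33.7 normalised counts (-4.12 ± 0.88, adjusted p = 0.00244). ID4__dup18681 and ID4__dup7634 had no LOF read and 23 and 19 CONTROL reads, each in 7 CONTROL embryos. Their CONTROL means were 10.6-fold and 11.8-fold above a floor of 3 reads over the LOF group.

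The 3 most-read MIR insertions did not pass the threshold. MIRc_dup18141, the one read in every embryo, had 6.04 to 44.5 normalised counts (median 15.9) in LOF and 13.4 to 55.5 (median 33.3) in CONTROL embryos, with wide overlap (-0.80 ± 0.44, adjusted p = 0.241, edgeR). MIR_dup30793 had 0 to 15.9 (median 4.92) and 4.06 to 28.9 (median 20.2), and its 9 LOF embryos lay below the CONTROL median (-1.74 ± 0.73, adjusted p = 0.108, or 0.0401 with DESeq2 and 0.0279 with edgeR's own filter). MIR3_dup10495 had medians of 4.83 and 5.42 (-0.69 ± 0.77, adjusted p = 0.619), and CONTROL embryo 8 gave 47 of its 177 reads.

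MIR insertions with the smallest adjusted p were less read. MIR_dup17441 had no LOF read and 38 CONTROL reads in 8 embryos, 25.4-fold above a floor of 3 reads over the LOF group. MIRb_dup6199 had no LOF read and 29 CONTROL reads, 15.2-fold above that floor. MIRb_dup26823 had 1 LOF read and 33 CONTROL reads (adjusted p = 0.00471), and MIR3_dup12229 15 and 123, a change of -3.31 ± 0.77 (adjusted p = 0.00483). The single higher MIR insertion, MIR3_dup13358, had 16 reads in 5 LOF embryos and none in CONTROL embryos. Its LOF mean was 4.13-fold above a floor of 3 reads over the CONTROL group.

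**Figure D5:**
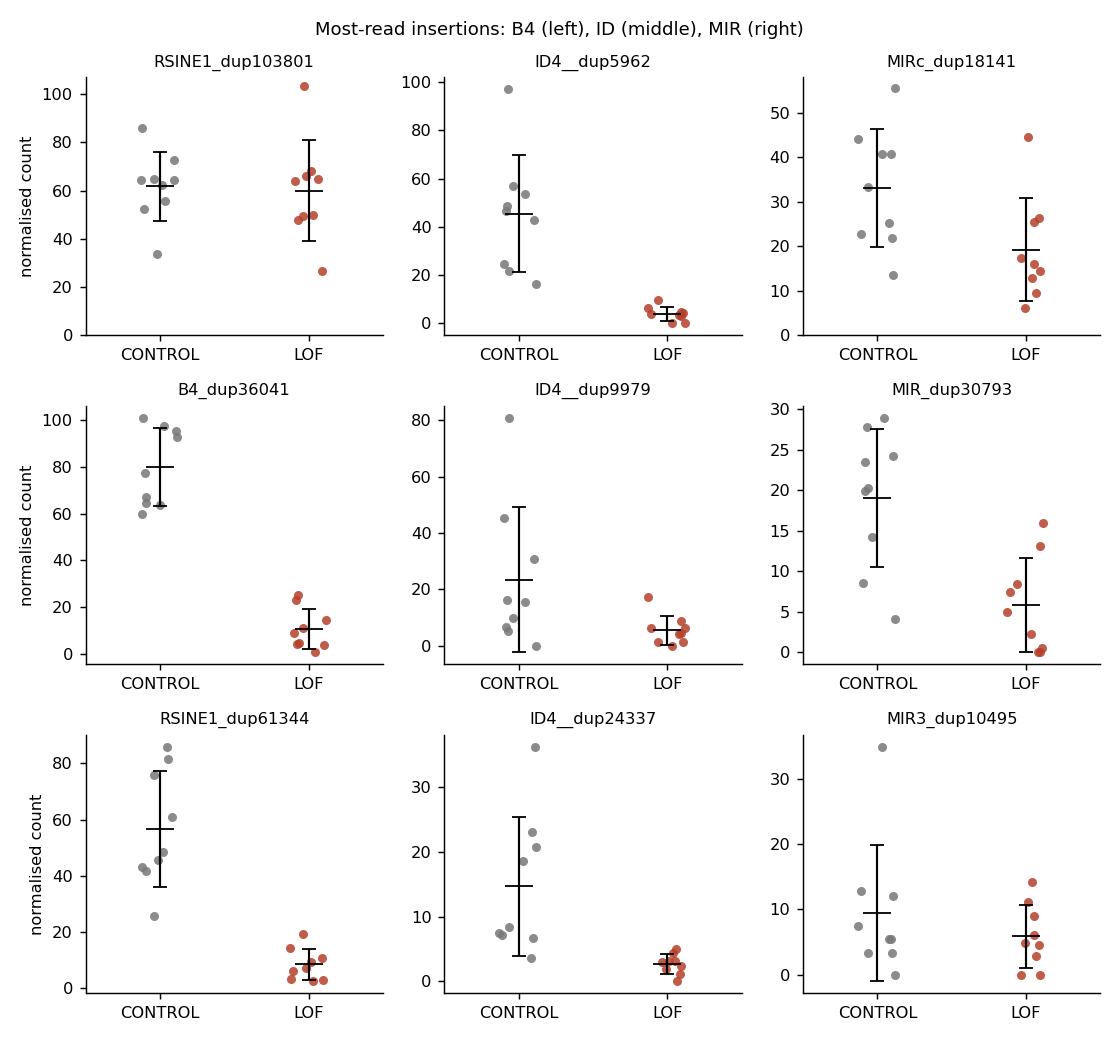
Normalised counts in each CONTROL and LOF embryo of the TBP experiment at the 3 most-read B4 (left), ID (middle) and MIR (right) insertions. Points are embryos and bars the mean and SD. RSINE1_dup103801 is alike in both arms, while B4_dup36041, RSINE1_dup61344 and ID4__dup5962 do not overlap between arms.

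Most mRNAs of a list of RNA polymerase III genes were lower in TBP LOF embryos. Their relation to the SINE reads was not tested. Of 25 genes for RNA polymerase III subunits, TFIIIB, TFIIIC, TFIIIA, the repressor Maf1 and the La protein Ssb, 20 fell and none rose in TBP LOF embryos, with a median log2 fold change of -1.70 (edgeR, same fit as the families). Over all features of that fit 29.7% were lower and the median was -0.72. With TMM scaling 15 passed, all lower, where 12.7% of all features were lower. Polr3d, a subunit of the polymerase, had 30.2 ± 13.6 normalised counts in LOF and 199 ± 43.1 in CONTROL embryos (SD, n = 9 each), a change of -2.73 ± 0.32 (adjusted p = 2.88e-09). Polr3k, a small subunit that acts in termination, changed by -2.48 ± 0.34 (adjusted p = 9.94e-08). The change of Polr1d, a subunit shared with RNA polymerase I, was -2.20 ± 0.32 (adjusted p = 2.32e-07), and that of Polr3b, the second largest subunit, -2.71 ± 0.39 (adjusted p = 2.72e-07). Polr3e, Polr3f, Polr3gl, Gtf3a and Maf1 did not pass. None of the 25 passed in FOXJ3 LOF embryos, where a subunit such as Polr3d stood at 0.34 (adjusted p = 0.904).

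Known RNA polymerase III transcripts could hardly be measured in these polyadenylated libraries. Bc1, the RNA gene from which ID elements derive, and Rmrp had no read in the 18 embryos, which allows up to 0.0813 rpm (3 reads of 36898201, counting error only). Rn7sk had 33 reads and Rpph1 32, and neither passed the threshold (adjusted p = 0.596 and 0.39). Rn7sl1 and Rn7sl2 had no row matched by name.

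Finally, the insertion tables recovered nearly all reads of the family tables. Summed per family, insertion reads came to a median of 91.6% of the family row for B4, 91.7% for ID_B1 and 94.3% for RSINE1, 88.7% for ID and 94.1% for ID4_, and 96.2% to 98.0% for the MIR families. No embryo had more insertion reads than family reads. Testing these sums in place of the family rows called the same number of families, 12 of 12 lower. As the sums hold largely the same reads, this is not a separate check, and no share over all features is given for it.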

How the data were processed

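Single late 2-cell embryos were sequenced with Smart-seq+5′. The authors aligned the 5′ reads with STAR 2.7.11a to GRCm38 and deposited estimated counts per gene and repeat family (TEcount) for each embryo and, for the TBP experiment, per insertion (TElocal). The sources used here do not give the strand setting of the counting, so a gene and an antisense partner cannot be told apart.

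For 6 families, 42 subfamily rows were summed into the family. The deposited counts were whole numbers, so none was rounded. The quality limits were 500000 or more counted reads, 1000 or more detected genes, and no more than 10% mitochondrial and 15% spike-in reads, which left 47 of 49. One mouse IgG CONTROL and 1 FOXJ3 LOF embryo were dropped. Features with at least 1 read in 25% of embryos were tested with edgeR 4.0.16 (R 4.3.3, glmQLFit and glmQLFTest) with Benjamini-Hochberg adjustment over all features. The TBP experiment and the difference of the effects were scaled by the median ratio of 42 and 41 spike-in transcripts read in each embryo, and the FOXJ3 experiment by TMM with batch as a covariate. SEs are the log2 fold change over the root of the F statistic, and 95% intervals are normal approximations from them.

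The labels place the TBP embryos in several collections but not which embryo in which, so p-values measure the spread between embryos. The labels give 9 LOF and 10 CONTROL embryos, and groups follow them, although the study's methods give these arm sizes the other way round. Same-numbered embryos deviated together weakly at most, with correlations up to 0.30 over genes and insertions, so no pairing was used. The numbers do not show which embryos shared a collection. Floors of 3 reads cover counting error only. For insertions read in 1 arm, the floor is 3 reads over the summed size factors of the empty arm. Folds set the other arm's mean normalised count against it and are not strict lower bounds. A fit with 100 of 59207 simulated features changed 4-fold and 100 changed 2-fold recovered 3 and 0 and made 6 false calls. The family fit of 19356 features recovered 49 and 9 with 10 false calls. Far more features were called in the data, 9068 of 59207, so these shares do not give the power of the fits reported. The named insertions were, per group, the 3 most read and the 4 lower and 4 higher with the smallest adjusted p past the threshold, and of the RNA polymerase III list the 4 genes with the smallest adjusted p. The members and lists were chosen with earlier results of these data known. Alternatives were TMM and summed spike-in scaling, DESeq2 1.42.0, other filters, all embryos, leaving out each embryo, a replicate block, insertions alone and summed insertions.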

Additional observations from a re-analysis of the deposited data

Results flagged for a closer look

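An embryo lying apart from the others of its group was found in 9 of 78 groups looked at, where chance gives about 1 in 20. CONTROL embryo 9 of the TBP experiment was lowest by a wide gap in the summed B4 insertions (1613 normalised counts, the others 2515 to 3418) and in the families B4A (715, the others 1739 to 2563), RSINE1 (881, the others 2264 to 3300) and MIR (158, the others 363 to 573). It also had the most counted reads and the largest spike-in size factor of the CONTROL embryos, and the part of the spike-in in these values was not tested.

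In the FOXJ3 experiment, where counts were TMM-scaled, B4A was low in LOF embryo 2 of batch 1 (745 TMM-scaled counts, the others 1320 to 1736) and in LOF embryo 1 of batch 2 (881, the others 1116 to 1255). ID4 was high in CONTROL embryo 7 of batch 1 (426, the others 238 to 306). MIRb was high in LOF embryo 7 of batch 2 (480, the others 339 to 382), and MIRc in CONTROL embryo 3 of batch 1 (420, the others 196 to 286). No family of the 12 differed between the batches in its response to anti-FOXJ3 by an interaction test (edgeR). The ID family alone had an unadjusted p under 0.05 there, with a difference of 0.76 on the log2 scale (adjusted p = 0.598).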

How the results depend on the processing

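With TMM scaling, 105 B4, 10 ID and 17 MIR insertions were lower and 16, 2 and 2 higher, 4 of the 12 families remained past the threshold in the TBP experiment and 4 in the difference from FOXJ3, and rpm gave group sums of -0.72 (B4), -1.02 (ID) and -0.44 (MIR) on the log2 scale. DESeq2 called 5 B4, 1 ID and 0 MIR insertions higher and 18 MIR insertions lower, and left 603 of the 1370 without an adjusted p. The filter of edgeR kept 7 B4, 1 ID and 2 MIR insertions, of which 4, 1 and 1 were lower (B4_dup36041, RSINE1_dup61344, ID_B1_dup36692, ID_B1_dup88710, ID4__dup5962 and MIR_dup30793) and 0 higher. Without a filter 376 of 24812 B4, 43 of 3095 ID and 47 of 4503 MIR insertions were lower and 14, 1 and 3 higher. With all 19 embryos 2 MIR insertions were higher. Apart from TMM scaling, no share over all features is given for the alternatives of this section. Their counts therefore do not set the groups against the other features.

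The replicate block, over 7 pairs of embryos that share a number, left 36 B4, 4 ID and 3 MIR insertions lower, 0 B4 insertions higher and 7 families lower. The same 14 embryos without the block, an alternative chosen after seeing the data, gave 53, 6 and 9 lower insertions and 3 higher B4 insertions, so the counts were also lower with fewer embryos. The numbers were not taken to pair the embryos. Correlations of their deviations ran from -0.07 to 0.14 over genes and families. Over genes and insertions they ran from -0.11 to 0.30, with 3 of the 7 pairs over 0.1. Those of the FOXJ3 pairs ran from -0.24 to 0.24, and the block called no family there either.

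Leaving out each embryo in turn gave 140 to 200 lower and 5 to 11 higher B4 insertions, 16 to 24 and 0 to 1 for ID, 21 to 31 and 0 to 2 for MIR, and 11 to 12 lower families. Group sums ran from -1.46 to -1.23 for B4, from -1.77 to -1.48 for ID and from -1.19 to -0.90 for MIR. Over the alternatives, no called result among the named insertions and the families changed its sign, nor did a group median or group sum. The other called insertions were not followed for their sign. Depth limits single insertions, most of which had under 1 read per embryo. No FOXJ3 insertion tables were used here.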
